A study of Homo sapiens with 3 samples.

Results

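The genes described here are the C2H2 zinc finger genes of human chromosome 19 that were expressed in HGC-27 cells. A gene was included where its symbol was ZNF followed by a number (with at most 1 letter after it), its position lay on chromosome 19 and its FPKM (fragments per kilobase of exon scaled to the mapped fragments of a library, a level per length) averaged at least 1 over the 3 libraries. This gave 33 genes out of 262 chromosome 19 ZNF rows and out of 50868 genes in the table. The genes were thus chosen by their mean level in these same libraries, and their levels are a description. HGC-27 is an established human gastric cancer cell line, and all 3 samples were at passage 6 and had been under siRNA transfection for 48 h. Total RNA was sequenced in 1 library with an siRNA against IRF3, 1 library with an siRNA against YAP and 1 library with a control siRNA. With 1 library per group no difference has a replicate check, and no p-value is given. Ratios of counts carry a 95% exact (Clopper-Pearson) counting interval, which covers counting error only.

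C2H2 zinc finger proteins bind DNA through tandem fingers held by zinc, and human chromosome 19 carries large tandem arrays of their genes. Many of them also encode a KRAB box, which recruits the corepressor TRIM28 (KAP1) and through it the histone methyltransferase SETDB1 and HP1 proteins to silence chromatin, often at transposable elements. YAP is a coactivator that reaches DNA through TEAD factors, and IRF3 is an interferon regulatory factor that binds interferon-stimulated response elements (ISRE).

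The libraries held 14941556 counts assigned to genes with IRF3 siRNA, 14385959 with YAP siRNA and 13949401 with control siRNA. YAP1, the gene targeted by the YAP siRNA, had 337 counts in the YAP siRNA library and 561 in the IRF3 siRNA library, against 861 in the control library, a count ratio of 0.380 (0.334 to 0.431) to control where YAP was the target. IRF3 had 597 counts in the IRF3 siRNA library and 764 in the YAP siRNA library, against 681 in the control library, a count ratio of 0.818 (0.732 to 0.915) to control where IRF3 was the target. Part of its exon sequence also belongs to BCL2L12, and IRF3 stood at 2.90, 3.86 and 3.55 FPKM with IRF3, YAP and control siRNA. With IRF3 siRNA the count ratio of YAP1 to control was 0.608 (0.546 to 0.677), below that of IRF3 itself. The counts of IRF3 were thus only slightly lower where it was the target, and the library is named by its siRNA throughout. Of 14 gastric and epithelial marker genes only KLF5 and GATA6 averaged at least 1 FPKM, TFF1, TFF2, MUC6 and GKN1 had no count, and EPCAM and CDH1 had at most 10 counts per library. The leukocyte gene PTPRC had at most 3 counts per library, and neither endothelial marker, PECAM1 or CDH5, averaged 1 FPKM. Of 4 mesenchymal markers, VIM was at 450.6, 469.0 and 511.2 FPKM with IRF3, YAP and control siRNA and FN1 at 6.16, 7.14 and 9.33 FPKM. The other 2 averaged under 1 FPKM, CDH2 with 7, 12 and 5 counts and ZEB1 with 43, 82 and 137 counts. In a bulk culture fewer cells of a kind and less RNA per cell cannot be told apart.

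Promoters of 5 of these genes are printed first. ZNF358 was taken as the gene of the highest level, and ZNF561 and ZNF146 as genes lower than control with either siRNA. ZNF580 and ZNF581 are neighbours whose ratios to control differed with IRF3 siRNA. ZNF561 met the 1 FPKM mean through control siRNA alone, so its lower values partly follow from the choice of members. Each sequence runs 5′ to 3′ on the gene's strand, from 250 bases before to 50 bases after the RefSeq start (GRCh38.p14), with capitals marking GC boxes (GGGCGG or its reverse complement) and the TEAD letters (GGAATG or its reverse complement). The windows lie at chr19:7515853-7516152 (plus strand) for ZNF358, chr19:9621183-9621482 (minus strand) for ZNF561, chr19:36214856-36215155 (plus strand) for ZNF146, chr19:55640752-55641051 (plus strand) for ZNF580 and chr19:55643399-55643698 (plus strand) for ZNF581.
ZNF358: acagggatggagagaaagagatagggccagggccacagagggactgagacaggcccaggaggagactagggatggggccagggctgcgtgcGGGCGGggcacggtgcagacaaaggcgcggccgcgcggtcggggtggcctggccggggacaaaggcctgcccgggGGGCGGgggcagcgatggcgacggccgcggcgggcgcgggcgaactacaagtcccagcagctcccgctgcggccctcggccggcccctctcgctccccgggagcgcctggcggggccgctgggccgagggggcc
ZNF561: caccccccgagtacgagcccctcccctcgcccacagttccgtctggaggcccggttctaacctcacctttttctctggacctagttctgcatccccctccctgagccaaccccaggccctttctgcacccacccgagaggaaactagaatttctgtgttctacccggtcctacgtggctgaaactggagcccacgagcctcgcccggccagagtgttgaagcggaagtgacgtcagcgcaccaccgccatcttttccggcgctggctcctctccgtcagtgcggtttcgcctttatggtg
ZNF146: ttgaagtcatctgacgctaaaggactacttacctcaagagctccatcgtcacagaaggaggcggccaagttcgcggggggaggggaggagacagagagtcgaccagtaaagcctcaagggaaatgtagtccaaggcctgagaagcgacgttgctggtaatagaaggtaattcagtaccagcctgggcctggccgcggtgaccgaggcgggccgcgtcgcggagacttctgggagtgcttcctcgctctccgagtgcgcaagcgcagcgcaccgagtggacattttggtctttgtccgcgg
ZNF580: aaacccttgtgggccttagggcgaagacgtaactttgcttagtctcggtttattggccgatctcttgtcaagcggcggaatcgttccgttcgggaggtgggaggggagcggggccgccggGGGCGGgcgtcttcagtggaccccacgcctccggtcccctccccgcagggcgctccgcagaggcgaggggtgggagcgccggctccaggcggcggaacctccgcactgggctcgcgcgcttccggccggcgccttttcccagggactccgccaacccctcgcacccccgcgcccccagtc
ZNF581: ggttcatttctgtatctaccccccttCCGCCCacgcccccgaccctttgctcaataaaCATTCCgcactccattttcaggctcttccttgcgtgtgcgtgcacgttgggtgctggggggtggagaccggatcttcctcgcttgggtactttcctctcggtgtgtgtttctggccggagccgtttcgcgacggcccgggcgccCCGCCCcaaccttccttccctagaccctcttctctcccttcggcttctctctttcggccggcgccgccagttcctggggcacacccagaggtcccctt
The ZNF358 window held 2 GC boxes and 32 CpG dinucleotides. The ZNF580 window held 1 GC box, the ZNF581 window held 2 GC boxes and 1 TEAD match, and neither motif was found in the windows of ZNF561 and ZNF146. The ZNF581 window starts at 55643399, before the deposited end of ZNF580 at 55643469, and its TEAD match lies in that stretch. The windows of ZNF580 and ZNF581 also begin inside the deposited spans of these genes, which start at 55635016 and 55635459. On chromosome 19 of hg38, as the deposited table gives it, ZNF358 (ENSG00000198816) spans 7515292 to 7521026, ZNF561 (ENSG00000171469) spans 9604680 to 9621399, ZNF146 (ENSG00000167635) spans 36214602 to 36238774, ZNF580 (ENSG00000213015) spans 55635016 to 55643469 and ZNF581 (ENSG00000171425) spans 55635459 to 55645622.

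RefSeq windows of 300 bases were matched by symbol for 30 of the 33 genes, and not for ZNF524, ZNF887P and ZNF738. GGAATG occurred on either strand in 3 of the 30, in ZNF574, ZNF581 and ZNF837, and in 4928 of all 35116 windows in the RefSeq table. The ISRE core, searched as 2 GAAA runs with any 2 bases between them, occurred in 0 of the 30, against 3.57% of all windows. The GC box occurred in 21 of the 30 (70.0%), against 45.0% of all windows, and the median number of CpG dinucleotides was 23, against 14. The 183 matched windows of chromosome 19 ZNF rows under 1 FPKM held the GC box in 67.2% and GGAATG in 16.4%. The 3 motifs were counted separately, also where their matches could overlap, and a match is a description of letters, not a bound site.

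The 33 genes were low to moderate in level, and a few genes without a KRAB box carried most of it. Their summed level was 139.2 FPKM with IRF3 siRNA, 134.0 with YAP siRNA and 134.9 with control siRNA, of which the 7 members with a mean of at least 5 FPKM held 87.7, 80.2 and 79.3 FPKM. Their median level was 2.25, 2.39 and 2.31 FPKM in the same order of libraries. ZNF358 was highest, at 17.8 FPKM with IRF3 siRNA, 17.0 with YAP siRNA and 18.1 with control siRNA. It was followed by ZNF428 at 15.0, 15.5 and 13.3 FPKM, ZNF581 at 14.9, 13.4 and 11.4 FPKM, ZNF787 at 14.6, 11.7 and 12.1 FPKM, and ZNF579 at 11.7, 9.93 and 10.1 FPKM. The order of ZNF428, ZNF581 and ZNF787 by level was not the same in the 3 libraries, whereas ZNF358 was above all other members in each. ZNF865 (7.49, 5.93 and 7.42 FPKM) and ZNF526 (6.33, 6.64 and 6.83 FPKM) were the only other members with a mean of at least 5 FPKM. The remaining members of the leading 10 were ZNF524 (mean 4.69 FPKM), ZNF317 (4.43) and ZNF580 (3.67).

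The other members lay between 1.05 and 3.15 FPKM in mean level. ZNF414 was at 2.81, 3.24 and 3.22 FPKM with IRF3, YAP and control siRNA, and ZNF653, a nuclear receptor corepressor also called Zip67, at 2.31, 2.69 and 2.75 FPKM. ZNF574 was at 2.46, 2.39 and 2.31 FPKM, ZNF627 at 1.97, 2.61 and 2.40 FPKM, and ZNF416 at 2.64, 2.31 and 2.07 FPKM. ZNF536, described as a repressor in neural differentiation, was at 0.948, 1.03 and 1.30 FPKM. ZNF71 was at 1.62, 1.48 and 1.39 FPKM. ZNF784, ZNF576 and ZNF446 averaged 1.55, 1.22 and 1.14 FPKM, and none of these passed 1.5-fold by counts in any comparison.

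**Figure D1:**
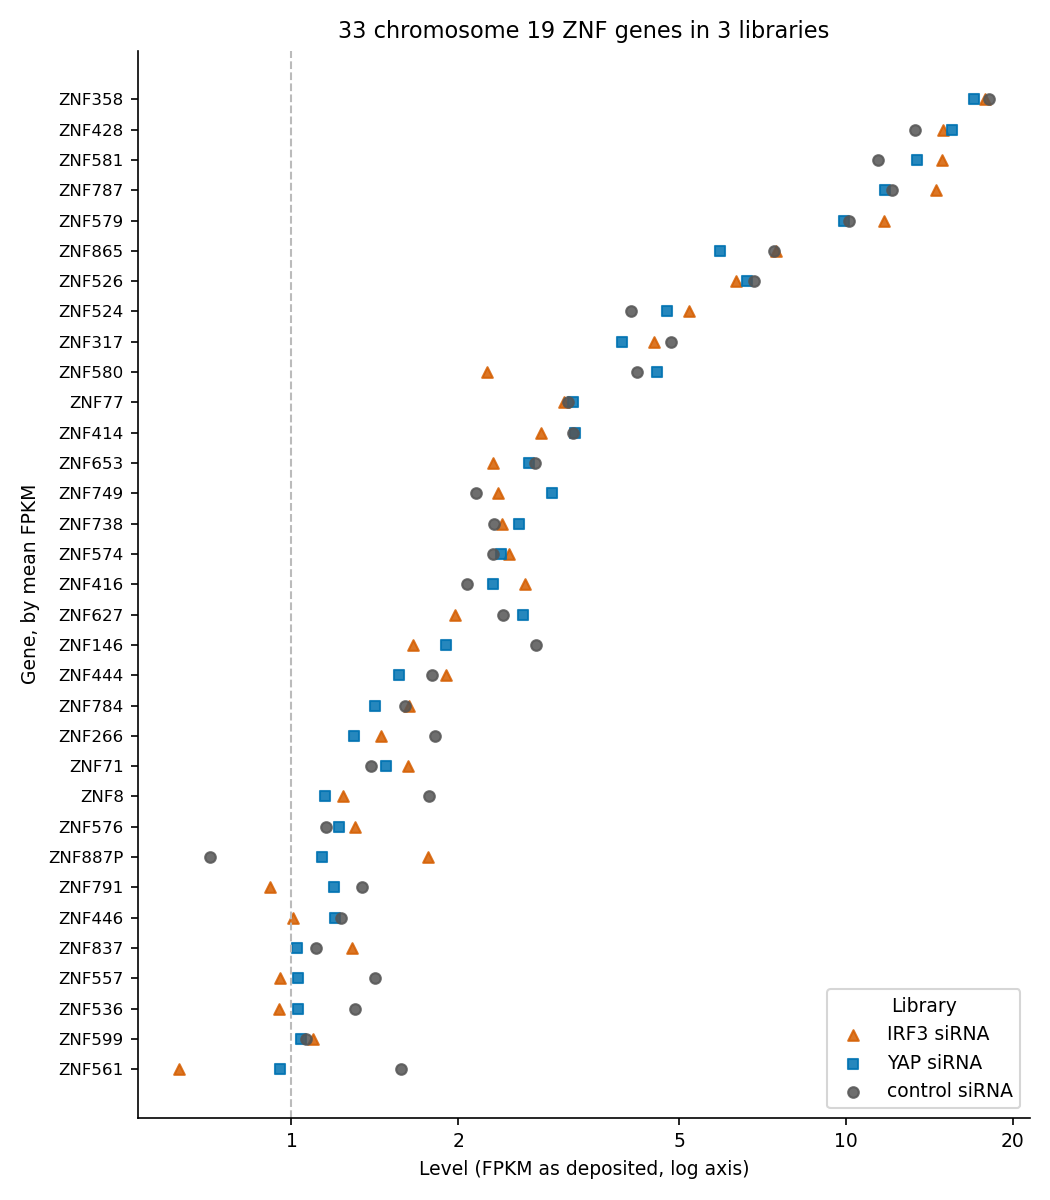
Level of each of the 33 genes (FPKM as deposited, log axis) in the IRF3 siRNA, YAP siRNA and control siRNA libraries, 1 point per library, genes ordered by mean; the dashed line is 1 FPKM. ZNF358 stands at the top near 17.65 FPKM, ZNF561 is at the bottom with 0.627 FPKM under IRF3 siRNA, and ZNF561 and ZNF887P show the widest gaps between libraries.

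The threshold runs through a dense part of the distribution. Just above it were ZNF561 (mean 1.05 FPKM), ZNF599 (1.07), ZNF536 (1.09), ZNF557 (1.13) and ZNF837 (1.14). Just below it were ZNF473 (0.965), ZNF304 (0.930), ZNF274 (0.917), ZNF584 (0.898) and ZNF324B (0.878). In 28 rows all 3 libraries were at or above 1 FPKM, and 5 members, ZNF561, ZNF887P, ZNF557, ZNF791 and ZNF536, passed with at least 1 library under it. Low FPKM did not always mean few reads, since 19 of the rows under 1 FPKM had 100 counts or more in a library. Among the 262 rows, 20 had no count in any library.

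Genes with a KRAB box were lower in level than genes without it. A KRAB pattern was found in the longest coding sequence of 207 of the 246 rows with an annotated coding sequence, and 13 of these (6.28%) were members, against 19 of the 39 rows without the pattern (48.7%). Median mean FPKM was 0.200 with the pattern and 0.965 without it. No KRAB row averaged 5 FPKM or more, whereas 7 rows without the pattern did. The highest KRAB member was ZNF317 at 4.51, 3.95 and 4.83 FPKM with IRF3, YAP and control siRNA. ZNF77 came next at 3.10, 3.22 and 3.15 FPKM, and ZNF749 and ZNF738 averaged 2.49 and 2.43 FPKM. On the other chromosomes 26 of 114 ZNF rows with the pattern (22.8%) and 71 of 149 without it (47.7%) averaged at least 1 FPKM. The pattern misses divergent boxes, so the class without it can hold some KRAB genes. ZNF887P is a pseudogene with no coding sequence and belongs to neither class.

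**Figure D2:**
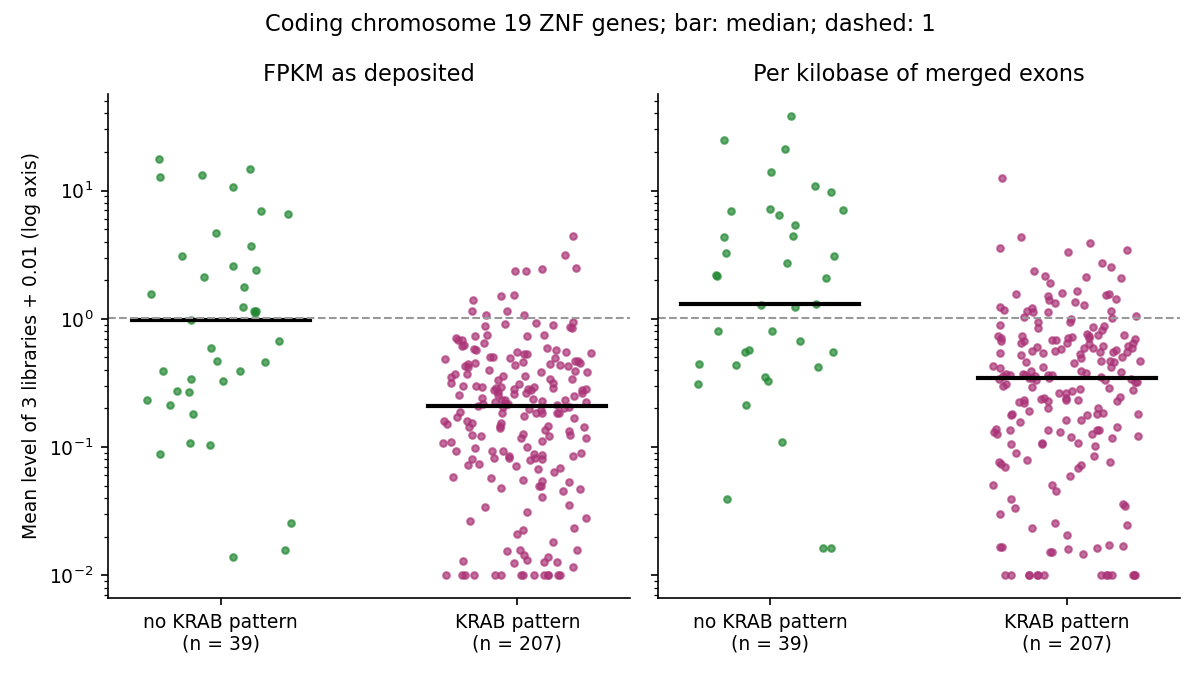
Mean level over the 3 libraries plus 0.01 (log axis) of coding chromosome 19 ZNF genes without (n = 39) and with (n = 207) a KRAB pattern, as deposited FPKM (left) and per kilobase of merged exons (right); 1 point per gene, bar at the median, dashed line at 1. The medians without and with the pattern were 0.965 and 0.200 FPKM, and 1.28 and 0.335 on the merged-exon scale.

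The members also differed in the proteins they encode. Counted as C2H2 patterns in the longest coding sequence, fingers ranged from 0 to 17 among KRAB members (median 12) and from 1 to 20 among members without the box (median 6). Over all coding rows the medians were 13 and 9 fingers. ZNF428 had a single finger pattern, ZNF580 had 3, ZNF581 had 4 and ZNF865 had 20. The longest coding sequence of ZNF738 held a KRAB pattern and no finger. Across the 32 coding members the level followed the number of fingers only weakly, with a Spearman rho of -0.14 (given as a description). GC content of the longest transcript had a median of 44.6% in KRAB members and 61.7% in members without the box.

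How the deposited FPKM values were scaled bears on which genes pass 1. For 29 of the 33 members (87.9%) the length implied by count and FPKM matched, within 1%, the summed length of all distinct annotated exon records, in which overlapping exons of alternative transcripts count repeatedly. It matched the length of merged exons for 3 members (9.09%), ZNF887P, ZNF416 and ZNF8, in which the summed and merged lengths are equal. For ZNF358, ZNF266, ZNF574 and ZNF71 it matched neither length. For ZNF317 the implied length was 14400 bases, against 5065 bases of merged exons. With counts scaled to library total and kilobases of merged exons, 57 of the chromosome 19 ZNF rows reached 1, all 33 members among them, and 21 of the 24 added rows had a KRAB pattern. On that scale 34 of 207 KRAB rows (16.4%) and 22 of 39 rows without the pattern (56.4%) reached 1, and ZNF317 stood at 12.6. The order of the leading genes also shifted, with ZNF358 at 37.9, ZNF581 at 24.7, ZNF428 at 21.1 and ZNF787 at 13.8.

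Members were unevenly spread along the chromosome. Neighbouring rows less than 500 kb apart were joined, which gave 21 positional clusters. The cluster on the long arm between positions 55476332 and 56671783 (hg38) held 17 rows, and 9 of them (52.9%) were members, namely ZNF579, ZNF524, ZNF865, ZNF784, ZNF580, ZNF581, ZNF787, ZNF444 and ZNF71. It was also the cluster where 10 rows lacked a KRAB pattern and 6 had it. Its proximal neighbour, between 51571298 and 53580269, held 43 rows, 38 of them with a KRAB pattern, and 0 members, its highest gene being ZNF880 at 0.545 FPKM. The pericentromeric cluster between 19668796 and 24129961 held 41 rows, of which 11 had no count and ZNF738 alone was a member. In the cluster between 36182060 and 37817300 the single member of 26 rows was ZNF146. The distal cluster between 57191500 and 58481230 held 5 members in 43 rows, ZNF749, ZNF416, ZNF8, ZNF837 and ZNF446. Both rows of the pair ZNF574 and ZNF526 were members, as were both of the pair ZNF557 and ZNF358.

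**Figure D3:**
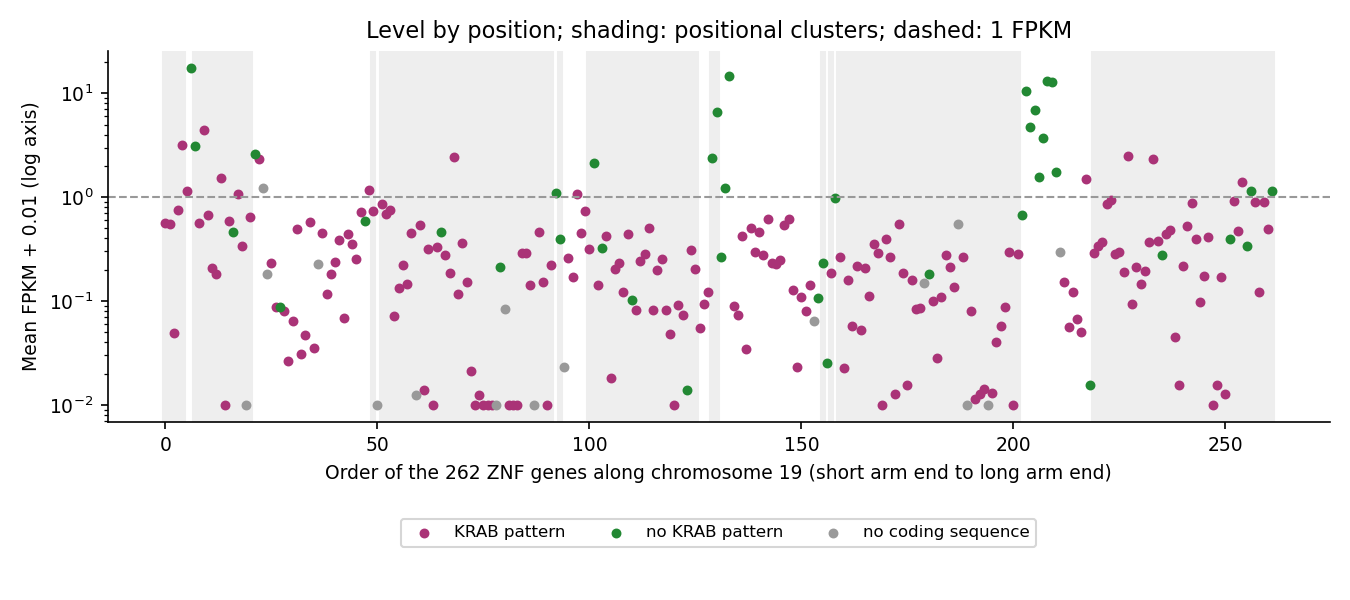
Mean FPKM of the 3 libraries plus 0.01 (log axis) for the 262 ZNF rows in their order along chromosome 19, coloured by KRAB pattern; grey and white bands alternate between positional clusters, and the dashed line is 1 FPKM. The band of 43 rows with 0 members lies just before the cluster of 17 rows that holds 9 members, most of them without a KRAB pattern.

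For IRF3 siRNA against control siRNA, no member differed by 2-fold or more on the log2(FPKM + 1) scale. There were 0 members higher and 0 lower, where 0.387% of the 11103 genes kept were higher, 0.612% were lower and 1.0% passed 2-fold in either direction. Adding 1 to FPKM understates the change of low genes. Log2 ratios of the members ran from -0.68 to 0.69 with a median of 0.01, beside -0.03 over all genes kept, and 17 members were above 0 and 16 below. The 5 highest were ZNF887P (0.69), ZNF581 (0.36), ZNF524 (0.28), ZNF787 and ZNF416 (0.24 each), and the 5 lowest were ZNF580 (-0.68), ZNF561 (-0.66), ZNF146 (-0.50), ZNF557 and ZNF8 (-0.30 each). The median was -0.08 for the 98 ZNF genes kept on other chromosomes and 0.10 for the 764 other genes kept on chromosome 19. Summed over the members, counts were 10299 with IRF3 siRNA and 10016 with control siRNA, a ratio of counts scaled to library totals of 0.960 (0.934 to 0.987).

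By counts alone, 1 member was more than 1.5-fold higher with IRF3 siRNA (3.17% of all genes kept) and 3 were more than 1.5-fold lower (12.7% of all genes kept). Past 2-fold by counts were 1 member higher, ZNF887P, and 1 lower, ZNF561, where 1.0% and 3.07% of all genes kept were. Both are among the 5 members that met the 1 FPKM mean only through their higher libraries, ZNF561 through control siRNA alone and ZNF887P without it, so nothing is read from their count. ZNF561, a KRAB zinc finger gene, had 157 counts with IRF3 siRNA and 368 with control siRNA, or 0.627 and 1.57 FPKM. Its count ratio was 0.398 (0.328 to 0.481), and together with the genes that share its exons, ZNF561-AS1 among them, it was 0.616 (0.540 to 0.704). ZNF146 (OZF), a protein made almost entirely of zinc fingers, had 212 counts with IRF3 siRNA and 330 with control siRNA, a ratio of 0.600 (0.502 to 0.715). ZNF146 supplied 93.8% of the counts of its overlapping pair in the control library, and the pair with ZNF565 had a ratio of 0.653 (0.552 to 0.770). ZNF146 was lower in the IRF3 siRNA library on either way of counting, and the values of ZNF561 are given as a description only.

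ZNF580 and its neighbour ZNF581 parted. ZNF580 had 158 counts with IRF3 siRNA and 275 with control siRNA, a ratio of 0.536 (0.438 to 0.655). ZNF581 had 722 counts with IRF3 siRNA and 516 with control siRNA, a ratio of 1.31 (1.17 to 1.47). The 2 genes share exon sequence with each other and with CCDC106, and the 3 together had 1441 counts with IRF3 siRNA and 1208 with control siRNA, a ratio of 1.11 (1.03 to 1.20). No source used here says how reads of the shared exons were divided between them, so the opposite values of ZNF580 and ZNF581 are uncertain. ZNF887P was higher, with 37 counts under IRF3 siRNA and 14 under control siRNA, a ratio of 2.47 (1.30 to 4.94). With the genes it overlaps the counts were 56 and 45 and the ratio 1.16 (0.771 to 1.76).

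Every member past 1.5-fold by counts in this comparison shared exon sequence with another counted gene, and so did 16 of the 33 members and 4995 of the 11103 genes kept. None of the 17 members without such overlap passed 1.5-fold, though ZNF557 and ZNF791 lay just short of it. The same share over all genes kept without overlap was not computed, so nothing is read from this. Among those 17, ZNF787 had 863 counts with IRF3 siRNA and 671 with control siRNA, a ratio of 1.20 (1.08 to 1.33). ZNF557 had 107 and 148 counts, a ratio of 0.675 (0.521 to 0.871), and ZNF791 had 167 and 229, a ratio of 0.681 (0.554 to 0.835). Both were under 1 FPKM with IRF3 siRNA and met the mean of 1 FPKM through their higher libraries. The lower values of ZNF557 and ZNF791 thus partly follow from the choice of members. The level of ZNF358 was close to equal, with 1181 counts under IRF3 siRNA and 1123 under control siRNA and a ratio of 0.982 (0.904 to 1.07).

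**Figure D4:**
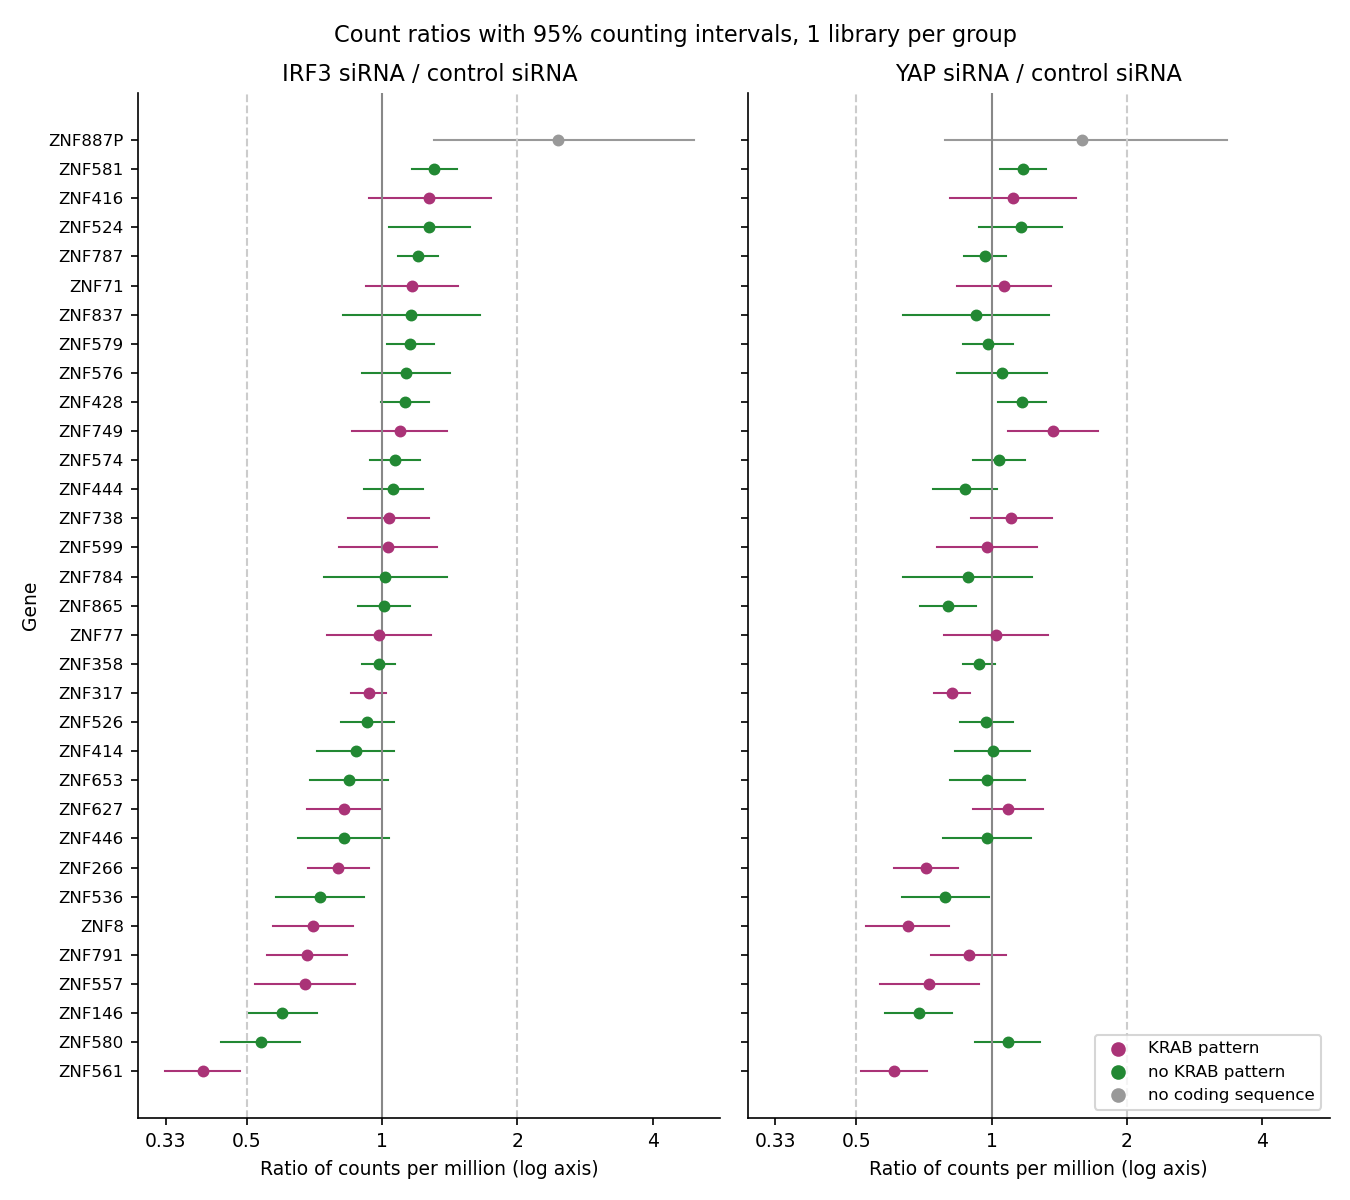
Ratio of counts scaled to library totals (log axis) with its 95% exact counting interval for the 33 genes, IRF3 siRNA over control siRNA (left) and YAP siRNA over control siRNA (right); both panels share the single control library. Past 1.5-fold lower lie ZNF561, ZNF580 and ZNF146 on the left and ZNF561 and ZNF8 on the right, and ZNF887P has the widest intervals.

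For YAP siRNA against control siRNA, the values spread less. No member passed 2-fold on the log2(FPKM + 1) scale, 0 higher and 0 lower, where 0.351% of the genes kept were higher, 0.468% were lower and 0.820% passed in either direction. The log2 ratios ran from -0.40 to 0.32 with a median of -0.02, beside -0.02 over all genes kept, though the median was 0.06 with TMM-scaled counts, on which the median of all genes was also 0.06. The median was -0.08 for ZNF genes kept on other chromosomes and 0.05 for the other genes kept on chromosome 19. There were 14 members above 0 and 19 below. The 5 highest were ZNF749 and ZNF887P (0.32 each), ZNF581 (0.22), ZNF428 (0.21) and ZNF524 (0.18), and the 5 lowest were ZNF561 (-0.40), ZNF146 (-0.38), ZNF8 (-0.36), ZNF266 (-0.29) and ZNF865 (-0.28). Summed counts were 9699 with YAP siRNA and 10016 with control siRNA, a scaled ratio of 0.939 (0.913 to 0.966).

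Past 1.5-fold by counts were 1 member higher with YAP siRNA (3.13% of all genes kept) and 2 members lower (10.5% of all genes kept). None passed 2-fold by counts, where 1.05% of all genes kept were higher and 2.72% lower. ZNF561 had 230 counts with YAP siRNA and 368 with control siRNA, a ratio of 0.606 (0.512 to 0.717), and 0.690 (0.606 to 0.785) with the genes that share its exons. This gene met the 1 FPKM mean through control siRNA alone, so nothing is read from its lower value. ZNF8, a KRAB zinc finger gene, had 151 counts with YAP siRNA and 225 with control siRNA, a ratio of 0.651 (0.526 to 0.803). It supplied 34.1% of the counts of its overlapping group in the control library, and the group had a ratio of 0.810 (0.722 to 0.908). ZNF146 had 234 counts with YAP siRNA and 330 with control siRNA, a ratio of 0.688 (0.579 to 0.815), just short of 1.5-fold, and 0.738 (0.627 to 0.868) with ZNF565. The higher member was ZNF887P, with 23 and 14 counts and an interval of 0.786 to 3.35 that includes 1. With the genes it overlaps the counts were 34 and 45 and the ratio 0.733 (0.455 to 1.17), in the other direction. ZNF887P met the 1 FPKM mean without control siRNA, so nothing is read from its higher value.

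Smaller differences had intervals that leave out 1. ZNF317 had 818 counts with YAP siRNA and 971 with control siRNA, a ratio of 0.817 (0.743 to 0.897). ZNF865 had 350 and 425 counts, a ratio of 0.799 (0.691 to 0.922), and ZNF266 had 260 and 353, a ratio of 0.714 (0.606 to 0.841). ZNF749 was higher, with 182 counts under YAP siRNA and 129 under control siRNA and a ratio of 1.37 (1.09 to 1.73). ZNF428 had 581 and 483 counts, a ratio of 1.17 (1.03 to 1.32), and ZNF581 had 626 and 516, a ratio of 1.18 (1.05 to 1.32). ZNF557 (0.727, 0.563 to 0.937) and ZNF536 (0.789, 0.630 to 0.985) were lower. ZNF557 and ZNF536 met the mean of 1 FPKM through their higher libraries, so their lower values partly follow from the choice of members. Both siRNA libraries were set against the same control library, so an extreme value in that library would enter both ratios.

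Setting IRF3 siRNA against YAP siRNA leaves the control library out. No member passed 2-fold on the log2(FPKM + 1) scale, where 0.297% of the genes kept were higher, 0.315% lower and 0.612% past it in either direction, and the median log2 ratio of the members was 0.04, beside -0.01 over all genes kept. The 5 highest were ZNF887P (0.37), ZNF865 and ZNF787 (0.29 each), ZNF579 (0.22) and ZNF444 (0.18), and the 5 lowest were ZNF580 (-0.77), ZNF627 (-0.28), ZNF561 (-0.26), ZNF749 (-0.23) and ZNF791 (-0.20). By counts, 1 member was past 1.5-fold higher with IRF3 siRNA, ZNF887P (2.45% of all genes kept), and 2 were lower, ZNF580 and ZNF561 (2.87% of all genes kept). ZNF887P met the 1 FPKM mean without control siRNA, with its highest level under IRF3 siRNA, and ZNF561 met it through control siRNA alone. Nothing is read from the values of ZNF887P and ZNF561 here. Past 2-fold by counts were 0 members higher and 1 lower, ZNF580, where 0.892% and 0.847% of all genes kept were. ZNF580 had 158 counts with IRF3 siRNA and 308 with YAP siRNA, a ratio of 0.494 (0.405 to 0.600), but the ratio of the 3 genes that share its exons was 0.979. Intervals above 1 were found for ZNF865 (ratio 1.26, 1.10 to 1.46), ZNF787 (1.24, 1.12 to 1.37), ZNF444 (1.21, 1.04 to 1.42), ZNF579 (1.18, 1.04 to 1.33) and the KRAB gene ZNF317 (1.14, 1.04 to 1.26). Beside ZNF580 and ZNF561, intervals below 1 were found for ZNF627 (0.755, 0.628 to 0.908), ZNF791 (0.766, 0.621 to 0.943) and ZNF749 (0.799, 0.640 to 0.997). With the genes that share exons, the ratio was 0.894 (0.774 to 1.03) for ZNF561 and 0.878 (0.757 to 1.02) for ZNF749, and both intervals include 1. For ZNF627 it was 0.749 (0.625 to 0.896). ZNF791 was under 1 FPKM with IRF3 siRNA and met the mean of 1 FPKM through its higher libraries.

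Summed counts of members with a KRAB box were lower relative to control than those of members without it, and ZNF genes of other chromosomes showed the opposite order. With IRF3 siRNA against control siRNA the 13 KRAB members had a summed count ratio of 0.840 (0.799 to 0.883), and the 19 members without the box 1.02 (0.982 to 1.05). With YAP siRNA against control siRNA the 2 ratios were 0.859 (0.817 to 0.903) and 0.977 (0.944 to 1.01). ZNF561, ZNF557 and ZNF791, with a KRAB box, and ZNF536, without it, were under 1 FPKM with IRF3 siRNA and highest with control siRNA. They met the mean of 1 FPKM through their higher libraries, so these sums partly reflect how members were chosen. Nothing is read from the order of the classes among members. The ZNF genes kept on other chromosomes were at 0.983 (0.955 to 1.01) with the box and 0.928 (0.916 to 0.941) without it for IRF3 siRNA, and at 1.0 (0.972 to 1.03) and 0.902 (0.889 to 0.914) for YAP siRNA. Among chromosome 19 ZNF rows under 1 FPKM the ratios were 0.789 (0.762 to 0.817) with the box and 0.768 (0.701 to 0.841) without it for IRF3 siRNA, and 0.859 (0.830 to 0.889) and 0.736 (0.671 to 0.808) for YAP siRNA. Median log2 ratios differed less, at -0.08 with the box and 0.01 without it for IRF3 siRNA, and at -0.02 for both classes for YAP siRNA. Median GC content was 44.6% in members with the box and 61.7% in members without it. In ZNF genes kept on other chromosomes it was 54.4% and 54.0%. The part of GC content in these ratios was not tested. Over all genes kept, the median log2 ratio with IRF3 siRNA was -0.19 in the lowest of 10 GC bins and 0.12 in the highest, and with YAP siRNA it was -0.14 and 0.05. A trend in level, exon length and GC content over all genes was removed from the log2 ratios, not from the summed counts. The KRAB median with IRF3 siRNA was then 0.06 and the median without the box -0.06, the other order. With YAP siRNA the medians were 0.15 and -0.04.

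**Figure D5:**
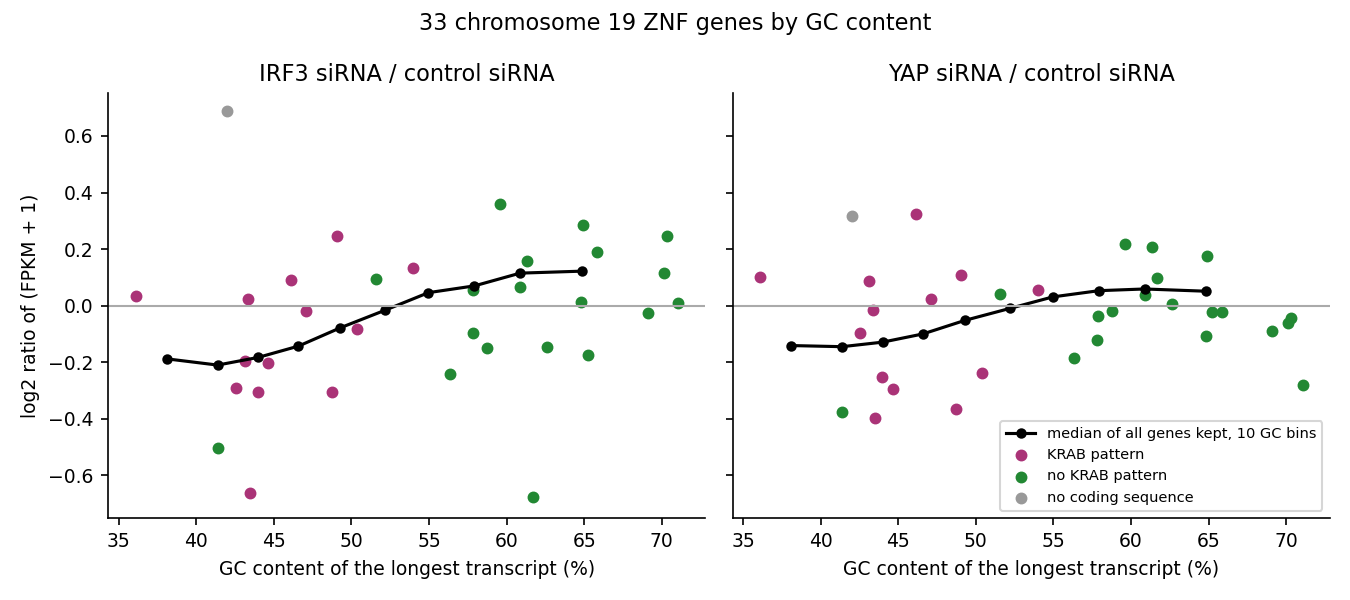
Log2 ratio of FPKM + 1 against the GC content of the longest transcript (%) for the 33 genes, IRF3 siRNA over control siRNA (left) and YAP siRNA over control siRNA (right), coloured by KRAB pattern; the black line joins medians of all genes kept in 10 GC bins. KRAB members lie between 36.1% and 54.0% GC, and the line is at -0.19 on the left and -0.14 on the right in its lowest bin.

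Across the 33 members the Spearman rho between log2 ratio and merged exon length was -0.55 in the IRF3 comparison with control and -0.61 in the YAP comparison with control, where over all genes kept it was -0.34 and -0.37. With GC content rho was 0.30 and 0.00 across the members, and 0.40 and 0.28 over all genes. These are descriptions across genes of the same libraries, and genes are not independent replicates.

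The chromosome 19 ZNF rows that stayed under 1 FPKM had fewer counts with IRF3 siRNA and YAP siRNA than with control siRNA. Their 229 rows summed to 6910 counts with IRF3 siRNA, 7151 with YAP siRNA and 8181 with control siRNA, scaled ratios of 0.789 (0.764 to 0.814) and 0.848 (0.821 to 0.875) to control. Rows of other kinds under 1 FPKM had lower ratios still, at 0.724 (0.720 to 0.727) and 0.746 (0.742 to 0.749).

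Of 16 chromosome 19 ZNF genes listed for a described role, 2 were members. ZNF444, a SCAN-domain zinc finger gene, had 362 counts with IRF3 siRNA, 287 with YAP siRNA and 319 with control siRNA, and ZNF146 is given above. ZNF274, which recruits SETDB1 to the 3′ ends of zinc finger genes, had 249, 255 and 241 counts, or 0.887, 0.943 and 0.919 FPKM. ZNF473, which acts in the 3′ end processing of histone mRNA, had 180, 209 and 222 counts. ZNF304, a KRAB repressor, had 79, 89 and 138 counts, or 0.690, 0.808 and 1.29 FPKM. ZNF91 and ZNF93, which repress retrotransposons, had 44, 31 and 26 counts and 7, 14 and 11 counts. ZNF331 had 65, 55 and 85 counts. ZNF224, which shares exon sequence with AC084219.4, had 8, 37 and 52 counts, count ratios of 0.144 (0.0589 to 0.304) and 0.690 (0.440 to 1.07). ZNF175 had 40, 46 and 15 counts, count ratios of 2.49 (1.35 to 4.85) and 2.97 (1.63 to 5.73). Of the 229 chromosome 19 ZNF rows under 1 FPKM, 74 were past 1.5-fold lower by counts and 20 higher with IRF3 siRNA. With YAP siRNA 63 were lower and 21 higher. Among the 195 ZNF rows of other chromosomes under 1 FPKM, 56 were lower and 11 higher with IRF3 siRNA. With YAP siRNA 50 of those 195 were lower and 9 higher. Nothing particular to chromosome 19 is read from these counts. The other listed rows, ZNF568, ZNF350, ZNF649, ZNF382, ZNF420 and ZNF675, had at most 95 counts in a library. Among 18 other zinc finger genes of chromosome 19 with names not starting in ZNF, 4 averaged at least 1 FPKM, namely ZBTB45, ZSCAN18, ZBTB7A and ZSCAN22. None of these 4 passed 2-fold, and their median log2 ratios were -0.08 with IRF3 siRNA and -0.12 with YAP siRNA.

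The corepressors that KRAB zinc finger proteins use were mostly well expressed. Among 20 listed and measured genes, 15 averaged at least 1 FPKM. TRIM28, the KRAB-binding scaffold, was at 59.7, 54.3 and 55.1 FPKM with IRF3, YAP and control siRNA, and SETDB1 at 4.20, 4.31 and 5.10 FPKM. CBX5 (HP1 alpha) was the single gene of these 15 past 2-fold on the log2(FPKM + 1) scale, at 4.49 FPKM with IRF3 siRNA and 4.83 with YAP siRNA, against 10.8 with control siRNA. Its log2 ratios were -1.10 and -1.02, where 0.612% and 0.468% of the genes kept were lower by 2-fold, and they were -0.74 and -0.70 once the trend in level, exon length and GC content was removed. CHD4, a remodeller of the NuRD complex, was at 36.6, 41.9 and 56.0 FPKM. ATF7IP, the SETDB1 partner, averaged under 1 FPKM and had 184, 191 and 577 counts, count ratios of 0.298 (0.251 to 0.352) and 0.321 (0.271 to 0.379). Of the other listed genes under 1 FPKM, TRIM33 had 69, 73 and 156 counts, count ratios of 0.413 (0.306 to 0.552) and 0.454 (0.339 to 0.603). FAM208A (TASOR), a subunit of the HUSH complex, had 80, 104 and 163 counts, count ratios of 0.458 (0.346 to 0.602) and 0.619 (0.479 to 0.796). TRIM24 had count ratios of 0.723 and 0.646, and SMARCAD1 of 0.536 and 0.825. Rows under 1 FPKM other than chromosome 19 ZNF rows had summed ratios of 0.724 and 0.746. The median log2 ratio of the 15 genes was -0.23 with IRF3 siRNA and -0.20 with YAP siRNA, beside -0.03 and -0.02 over all genes kept. With IRF3 siRNA 5 of the 15 were above 0 and 10 below, and with YAP siRNA 2 and 13. Among those above 0 were SUV39H1 (count ratio 1.24, 1.05 to 1.46) and UHRF1 (1.14, 1.03 to 1.25) with IRF3 siRNA. PPHLN1 was above 0 with YAP siRNA (1.21, 1.10 to 1.33).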

How the data were processed

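RNA of 3 HGC-27 libraries, 1 per siRNA, was measured. The reads were aligned with TopHat2 2.0.9 to hg38, per the submitters' processing notes. The authors deposited a count and an FPKM value per gene and library; no source used here names the counter, annotation, strand setting or FPKM program, so overlapping genes, antisense ones included, cannot be told apart. Whether each library is 1 culture or a pool is not given either.

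From there, genes averaging 1 FPKM or more were kept (11103 of 50868), ratios were log2 of FPKM plus a pseudocount of 1, and a gene was called at 2-fold. Count ratios are scaled to the counts assigned to genes in each library, with 95% exact binomial intervals. Library totals ran from 13949401 to 14941556 counts; a count of 0 allows up to 3 counts, and PCR copies are not independent. Gene class, exon overlap on either strand, exon lengths, GC content and coding sequences came from GENCODE release 29 of the same build; 31 of the 33 genes had identical coordinates there. KRAB boxes and fingers are patterns searched in the translated longest coding sequence. Promoters came from RefSeq. The computation used Python 3.11.15 with pandas 2.3.3, numpy 2.4.6, scipy 1.17.1, patsy 1.0.2 and matplotlib 3.10.9, and R 4.3.3 with edgeR 4.0.16 for TMM scaling alone, and was tested on simulated data. No test between groups was run because each group has 1 library.

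Members and lists were chosen with earlier results of these data known. Named genes are the members past 2-fold or else the 5 largest differences per direction, the 10 of highest level, 5 on either side of 1 FPKM, the listed genes, the highest gene of each cluster and the 2 targets; others were named after their values were seen.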

Additional observations from a re-analysis of the deposited data

How the results depend on the processing

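No paired analysis was possible because each group has 1 library. For IRF3 siRNA against control siRNA, the 0 higher and 0 lower members became 1 and 1 with a pseudocount of 0.1, with TMM-scaled CPM or with count ratios, 1 and 2 at 1.5-fold, and 1 and 3 at 1.5-fold on count ratios (an alternative chosen after seeing the data). The median of 0.01 was 0.16 among the 7 members with a mean of at least 5 FPKM and 0.11 with TMM-scaled CPM, where the median of all genes was 0.07. For YAP siRNA against control siRNA, 1 was higher and 2 lower at 1.5-fold on count ratios, and the median of -0.02 was 0.093 once the trend in level was removed. For IRF3 siRNA against YAP siRNA, 1 was lower with TMM-scaled CPM, with count ratios and at 1.5-fold, 1 was higher and 2 lower at 1.5-fold on count ratios, and the median of 0.04 was 0.14 at a mean of at least 5 FPKM. The cause was not tested. Among single genes 1336 values moved little, 59 moved further and 3 no longer passed 2-fold, those of CBX5 and YAP1 with the trend in level, exon length and GC content removed (also chosen after seeing the data). Depth limits the low members most: 14 counts of ZNF887P in the control library leave a wide interval.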
